A study of Mus musculus with 12 samples.

Results

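NR4A, EGR and NFAT factors are transcription factors that read out antigen receptor signalling in T cells. Their genes Nr4a1, Nr4a2, Nr4a3, Egr1, Egr2, Egr3, Nfatc1 and Nfatc2 were described here across all 12 libraries of the series. Tox, which belongs to none of these families, was the last of the 9 genes described. They were taken by gene symbol from the 47643 genes of the table, and each symbol matched 1 gene. All 9 reached 1 FPKM (a level per transcript length and per sequencing depth) in at least 3 libraries, as did 13082 genes in all. Egr3 did so in 11 libraries and the other members in 12.

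The cells came from the spleens of C57BL/6 mice and were labelled naive CD4+ T cells. All were cultured for 3 days with plate-bound anti-CD3 and anti-CD28 (2 μg/ml each, 500000 cells per well), which stimulate the T cell receptor and its costimulator, so every group carried that stimulus. Wild-type (WT) cells received no cytokine (Th0), TNF+TGF-β, or else IL-6+TGF-β. Tnfr2-/- cells, which lack TNF receptor 2, received TNF+TGF-β. Each group had 3 libraries. TGF-β was added at 2 ng/ml, and its partner, whether TNF or IL-6, at 20 ng/ml. Neither TGF-β alone nor untreated Tnfr2-/- cells were analysed here. TGF-β therefore cannot be told apart from the cytokine added with it, nor can a genotype difference without TNF be told apart from one under TNF. The labels call the libraries triplicates without saying whether these were separate mice or cultures, so p-values measure only the spread between these libraries, which may be technical. One Tnfr2-/- library carries the number 4 in the table and no such number in the labels, and is called the library numbered 4.

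Estimated depth was 16800000 to 23800000 fragments per library. Tnfrsf1b, the deleted gene, had 70.77 to 108.17 FPKM in the WT libraries with TNF+TGF-β and 3.19 to 4.87 in the Tnfr2-/- libraries, as labelled. Cd8a and Cd8b1, the coreceptor genes of CD8 T cells, were both above Cd4 in 11 of 12 libraries, which goes against a pure CD4 label. The summed level of 8 B cell markers was 830 to 1280 FPKM in Th0, 415 to 928 with IL-6+TGF-β, 277 to 360 with TNF+TGF-β and 2044 to 4467 in Tnfr2-/- libraries. The 8 T cell markers summed to 1847 to 2487 FPKM over the WT libraries and to 1231 to 1887 in Tnfr2-/- libraries. The 6 CD8 and NK markers summed to 1164 to 1668 FPKM in WT and 97.7 to 303 in Tnfr2-/- libraries, and 8 myeloid markers to 22.5 to 172 and 206 to 1443. Dendritic and erythroid markers summed to at most 11.6 and 79.7 FPKM in any library, with Clec9a at 0 in all libraries of the 3 groups with cytokines. B and myeloid cells also express NR4A, EGR and NFAT genes, so the members' levels are sums over a mixed population, and fewer cells of a type cannot be told apart from less RNA per cell.

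When the T cell receptor is engaged, calcium activates the phosphatase calcineurin, which lets NFAT proteins enter the nucleus, while the MAP kinase pathway induces EGR genes within minutes. NR4A genes encode orphan nuclear receptors that are induced just as fast and follow the strength of the receptor signal. Egr2 and Egr3 restrain T cell activation and are linked to anergy, and NFAT working without its AP-1 partner induces NR4A and TOX genes in chronically stimulated T cells. All libraries here were made after 3 days of stimulation, and no earlier or unstimulated sample was analysed.

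With TNF+TGF-β, 4 of the 9 genes (44.4%) differed from Th0, against 31.7% of all genes tested: Nr4a1, Egr2 and Nfatc2 rose and Tox fell. With IL-6+TGF-β, 5 of 9 (55.6%) differed from Th0, against 23.2% of all genes: Nfatc2 rose, and Nr4a2, Nr4a3, Egr3 and Tox fell. Between both cytokine pairs, Nr4a1, Nr4a3, Egr2 and Egr3 were higher with TNF+TGF-β, or 4 of 9 against 7.31% of all genes higher and 12.8% in either direction. None was lower (5.50% of all genes) by limma, nor at an unadjusted p under 0.05. In Tnfr2-/- cells under TNF+TGF-β, Nr4a2, Nr4a3, Egr2 and Nfatc2 were lower than in WT, or 4 of 9 against 17.5% of all genes lower and 37.4% in either direction, the latter close to the members' 44.4%. None was higher (19.9% of all genes) by limma, nor at an unadjusted p under 0.05. Calls were made at 0.05 on limma p-values adjusted over all genes tested. Differences are given in log2(FPKM + 1), where changes of weakly expressed genes come out too small. Egr1 and Nfatc1 passed in none of these comparisons. In 2 further comparisons genotype and cytokines differ together. Tnfr2-/- cells differed from Th0 in 3 of 9 genes against 48.1% of all genes: Nr4a2, Nr4a3 and Tox were lower (19.1% of all genes were lower), and 0 were higher by limma (29.0% of all genes), with 2 at an unadjusted p under 0.05. From IL-6+TGF-β in WT they differed in 3 of 9 against 38.5%: Nr4a1 and Egr2 were higher and Nfatc2 lower. Groups did not overlap for 5 of 9 genes in the first of these (56.7% of all genes) and for 3 of 9 in the second (44.0%). Nr4a2 and Nr4a3 against Th0 passed in all 16 alternatives run, while Tox was lost in 7. Against IL-6+TGF-β, Nr4a1 was lost in 9 of 16, Nfatc2 in 8 and Egr2 in 5, and 1 to 2 members passed when 1 library was left out. Nr4a1 was lost there without IL-6+TGF-β replicate 1 (adjusted p = 0.0696) or 2 (0.126) or Tnfr2-/- library 1 (0.141) or 2 (0.085), and Nfatc2 without IL-6+TGF-β replicate 2 (0.170) or 3 (0.127), Tnfr2-/- library 2 (0.103) or the one numbered 4 (0.166).

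**Figure D1:**
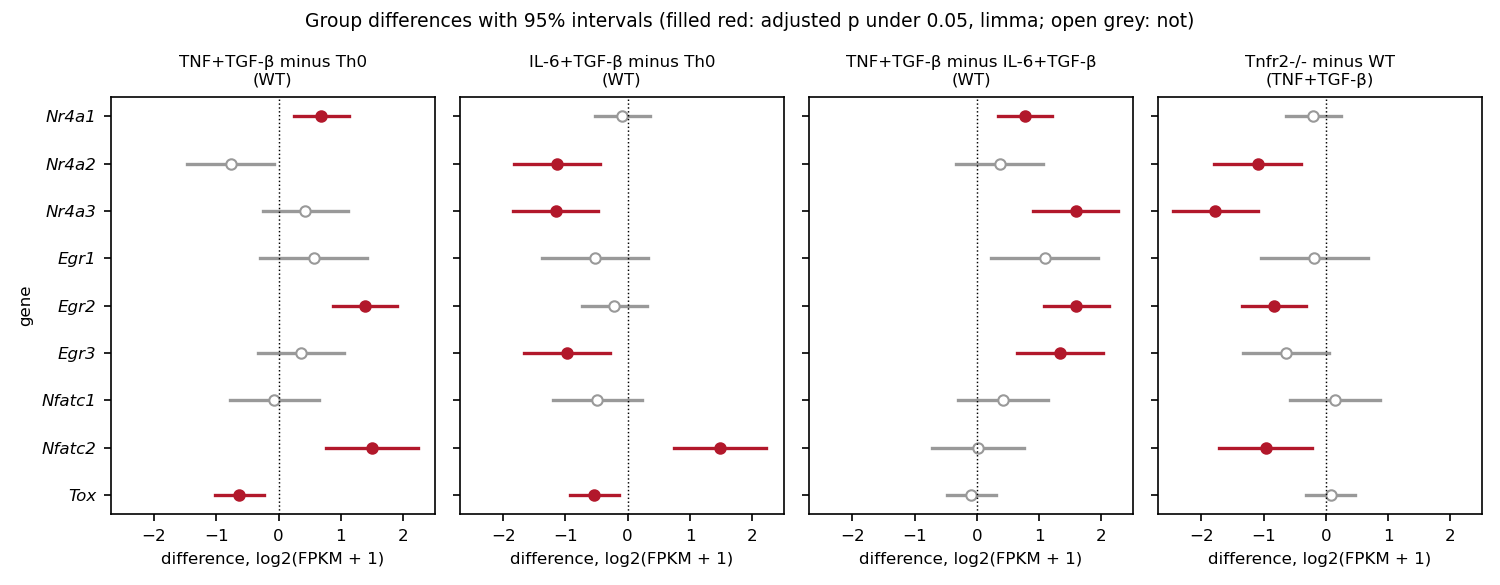
Difference between group means on the log2(FPKM + 1) scale (x axis) for each gene (y axis) in the 4 comparisons, with the 95% interval of the limma fit; red filled points passed an adjusted p of 0.05. In the comparison of TNF+TGF-β with IL-6+TGF-β, 4 points are red and all 4 lie to the right of 0, and in that of Tnfr2-/- with WT 4 points are red and all lie to the left.

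NR4A receptors bind DNA alone or with retinoid X receptors, and their genes are controlled by CREB proteins, among others, through cAMP response elements. The promoters of Nr4a1, Nr4a2, Nr4a3 and Egr2 are printed because these genes carry many of the group differences and 3 of them are paralogs. That of Nfatc2, which also passed in several comparisons, was searched for the same elements but is not printed. Each runs from 250 bases before to 50 after a RefSeq transcription start (GRCm38.p6), read 5′ to 3′ on the gene's strand. That of Nr4a2 surrounds the gene's most upstream start, 8965 bases from the start of the first-numbered GENCODE transcript, a distance that is 0 for Nr4a1 and Egr2 and 152 for Nr4a3. The intervals are chr15:101266596-101266895 on the plus strand for Nr4a1, chr2:57123954-57124253 on the minus strand for Nr4a2, chr4:48045055-48045354 on the plus strand for Nr4a3 and chr10:67537619-67537918 on the plus strand for Egr2. Capitals mark the half-site of the cAMP response element, TGACG, on either strand, and in Egr2 also the CArG box, the binding element of serum response factor.
Nr4a1: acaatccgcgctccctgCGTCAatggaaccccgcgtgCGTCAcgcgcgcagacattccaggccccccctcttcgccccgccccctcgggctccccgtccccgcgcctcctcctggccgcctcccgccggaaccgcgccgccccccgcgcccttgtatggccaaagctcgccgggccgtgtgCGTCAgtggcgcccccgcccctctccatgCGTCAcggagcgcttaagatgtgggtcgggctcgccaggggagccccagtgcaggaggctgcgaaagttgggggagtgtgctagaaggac
Nr4a2: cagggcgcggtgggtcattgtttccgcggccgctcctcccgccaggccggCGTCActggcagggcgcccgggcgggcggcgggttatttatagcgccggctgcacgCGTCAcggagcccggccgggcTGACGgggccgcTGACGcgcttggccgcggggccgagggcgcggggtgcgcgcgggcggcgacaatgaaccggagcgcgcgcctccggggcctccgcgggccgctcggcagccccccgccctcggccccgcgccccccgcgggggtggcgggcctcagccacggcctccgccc
Nr4a3: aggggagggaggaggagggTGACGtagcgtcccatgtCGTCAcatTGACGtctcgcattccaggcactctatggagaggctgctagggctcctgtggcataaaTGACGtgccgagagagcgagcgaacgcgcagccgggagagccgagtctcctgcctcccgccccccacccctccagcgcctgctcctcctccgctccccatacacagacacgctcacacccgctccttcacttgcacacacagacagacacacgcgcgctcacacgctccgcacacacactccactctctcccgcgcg
Egr2: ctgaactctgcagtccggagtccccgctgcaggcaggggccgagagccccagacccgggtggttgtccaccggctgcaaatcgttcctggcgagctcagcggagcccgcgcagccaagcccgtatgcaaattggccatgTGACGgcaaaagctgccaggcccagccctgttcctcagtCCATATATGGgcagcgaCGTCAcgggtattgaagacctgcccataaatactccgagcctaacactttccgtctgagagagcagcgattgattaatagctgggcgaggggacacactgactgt

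The 3 NR4A promoters each held 4 half-sites, Egr2 held 2 and the Nfatc2 promoter held 0. Of 32544 distinct promoters of the same length, 20.9% held at least 1 and 1.04% at least 3. The half-site was picked after these sequences had been read, so this is a description. The full palindrome TGACGTCA, of which the half-site is a part, was in none of the 5 member promoters and in 1.80% of all. The CArG box of Egr2 starts 72 bases before the start site, and 1.64% of all promoters hold one. The EGR element GCGNGGGCG was found once in Nr4a1 and once in Nr4a2 (5.60% of all promoters), and an NF-κB decamer once in Nr4a1 (8.49%). The NFAT core GGAAA was found once each in Nr4a2, Egr2 and Nfatc2 (61.5%). The NR4A element AAAGGTCA (1.52%) and the AP-1 element TGANTCA (7.79%) were found in none of the 5. No promoter of the other 4 members was used.

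Nr4a1 (ENSMUSG00000023034.6, chromosome 15, 101254269 to 101274795 of GRCm38, plus strand), which encodes NUR77, was the most abundant NR4A gene. Its levels were 49.44, 58.32 and 58.41 FPKM in Th0, 51.99, 45.75 and 58.91 with IL-6+TGF-β, 102.07, 71.64 and 98.12 with TNF+TGF-β, and 104.06, 76.64 and 58.85 in Tnfr2-/- cells. Every WT library with TNF+TGF-β was above every Th0 and IL-6+TGF-β library. The mean rose 1.64-fold over Th0 (log2 difference 0.69 ± 0.20 (SE), adjusted p = 0.0218) and was 1.74 times that with IL-6+TGF-β (0.77 ± 0.20, adjusted p = 0.0236). Every Tnfr2-/- library was above every Th0 library (difference 0.49, interval 0.05 to 0.92, adjusted p = 0.0644). The Tnfr2-/- group overlapped those with IL-6+TGF-β and TNF+TGF-β in WT. Its difference from WT under TNF+TGF-β was -0.20 with an interval of -0.64 to 0.24 (adjusted p = 0.458). In order, TNF+TGF-β in WT, Tnfr2-/-, Th0 and IL-6+TGF-β, no neighbours differed (adjusted p = 0.458, 0.0644 and 0.805).

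Nr4a2 (ENSMUSG00000026826.13, chromosome 2, 57106830 to 57124003, minus strand), which encodes NURR1, had its highest levels without cytokines. It stood at 26.44, 36.53 and 30.71 FPKM in Th0, 10.96, 11.69 and 19.28 with IL-6+TGF-β, 22.80, 13.21 and 18.51 with TNF+TGF-β, and 13.95, 5.53 and 5.97 in Tnfr2-/- cells. All Th0 libraries were above all others. Nr4a2 fell 2.23-fold with IL-6+TGF-β (log2 difference -1.14 ± 0.32, adjusted p = 0.0226). With TNF+TGF-β the difference from Th0 was -0.77 (interval -1.47 to -0.07, adjusted p = 0.087). It was lower in Tnfr2-/- than in WT cells, 8.48 ± 4.74 against 18.2 ± 4.80 FPKM (SD, n = 3 each; log2 difference -1.09 ± 0.32, adjusted p = 0.0190), though the Tnfr2-/- library 1 overlapped the WT range. The widest gap was between Tnfr2-/- cells and Th0, 3.68-fold (adjusted p = 0.000617), where genotype and cytokines differ together. No neighbours differed in the order Th0, TNF+TGF-β, IL-6+TGF-β, Tnfr2-/- (adjusted p = 0.087, 0.525 and 0.0925).

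Nr4a3 (ENSMUSG00000028341.9, chromosome 4, 48045153 to 48086447, plus strand), which encodes NOR1, was the member with the largest difference between genotypes. Its levels were 7.46, 14.36 and 10.62 FPKM in Th0, 3.48, 5.29 and 3.81 with IL-6+TGF-β, 17.87, 9.04 and 18.49 with TNF+TGF-β, and 4.37, 4.40 and 2.17 in Tnfr2-/- cells. The IL-6+TGF-β and Tnfr2-/- libraries all lay below all Th0 and all WT TNF+TGF-β libraries. The mean in Tnfr2-/- cells was 4.15-fold lower than in WT (log2 difference -1.78 ± 0.31, adjusted p = 0.00104). With TNF+TGF-β it was 3.61 times that with IL-6+TGF-β (1.59 ± 0.31, adjusted p = 0.00462), and with IL-6+TGF-β it fell 2.58-fold from Th0 (-1.16 ± 0.31, adjusted p = 0.0183). TNF+TGF-β in WT and Th0 differed by 0.43 (interval -0.25 to 1.11, adjusted p = 0.316), and IL-6+TGF-β and Tnfr2-/- by -0.19 (interval -0.87 to 0.49, adjusted p = 0.669).

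**Figure D2:**
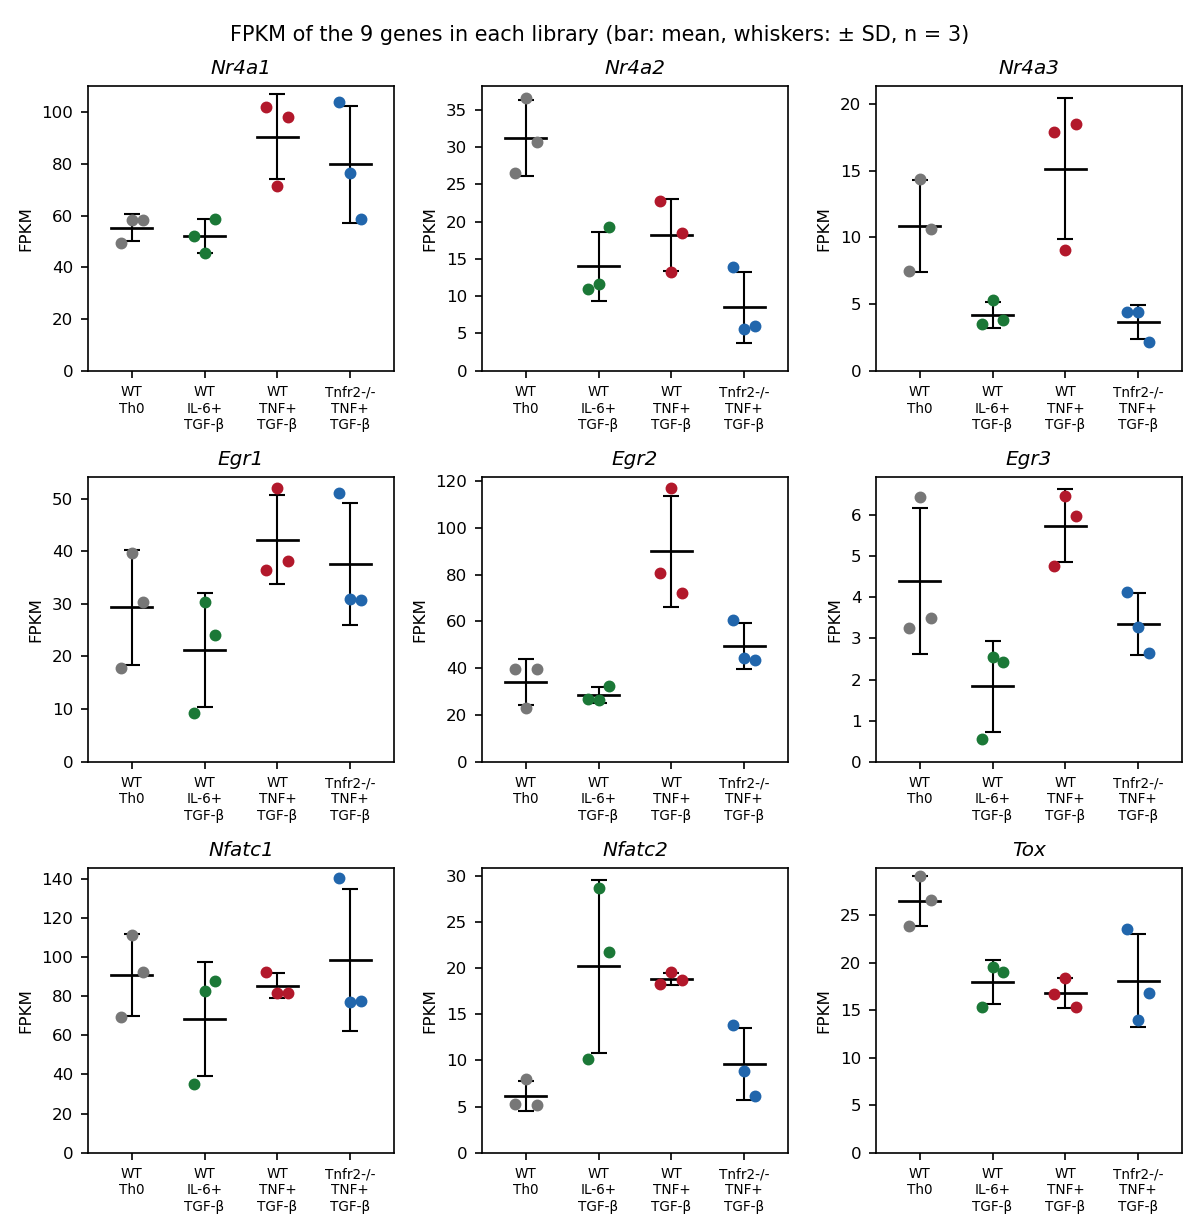
FPKM (y axis, from 0) of the 9 genes in each library, by group (x axis); points are libraries, the bar is the mean and whiskers are ± SD (n = 3). Nr4a3 has 2 high groups (WT Th0 and WT TNF+TGF-β) and 2 low groups, Egr2 has its 3 highest libraries with TNF+TGF-β in WT, and the 4 groups of Nfatc1 overlap.

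EGR proteins are zinc-finger factors, and Egr1 (ENSMUSG00000038418.7, chromosome 18) is the early gene most widely used as a sign of MAP kinase signalling. It stood at 17.89, 39.68 and 30.40 FPKM in Th0, 9.26, 30.37 and 24.10 with IL-6+TGF-β, 36.52, 51.97 and 38.18 with TNF+TGF-β, and 50.98, 30.96 and 30.81 in Tnfr2-/- cells. Replicate 1 was the lowest library in both Th0 and IL-6+TGF-β. The groups with TNF+TGF-β and IL-6+TGF-β in WT did not overlap, with a ratio of means of 1.99, and the log2 difference of 1.09 (interval 0.23 to 1.95) missed the threshold (adjusted p = 0.0986). Of 16 alternatives it passed in 1, without IL-6+TGF-β replicate 2 (1.41, adjusted p = 0.0422), and without IL-6+TGF-β replicate 1 it was 0.61 (adjusted p = 0.304). Against Th0 the difference was 0.56 with TNF+TGF-β (interval -0.29 to 1.42, adjusted p = 0.295) and -0.53 with IL-6+TGF-β (interval -1.38 to 0.33, adjusted p = 0.382), and without each group's replicate 1 these were 0.26 (without Th0 replicate 1) and -0.0424 (without IL-6+TGF-β replicate 1). Between genotypes it was -0.19 (interval -1.04 to 0.67, adjusted p = 0.739).

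Egr2 (ENSMUSG00000037868.15, chromosome 10, 67535475 to 67542188, plus strand) had the highest levels of the EGR genes and rose with TNF+TGF-β. It stood at 39.68, 22.81 and 39.70 FPKM in Th0, 26.88, 26.31 and 32.30 with IL-6+TGF-β, 80.94, 117.10 and 72.19 with TNF+TGF-β, and 60.78, 44.29 and 43.36 in Tnfr2-/- cells. Every WT TNF+TGF-β library was above every other library, and every Tnfr2-/- library was above every Th0 and IL-6+TGF-β library. The mean rose 2.64-fold over Th0 (log2 difference 1.39 ± 0.24, adjusted p = 0.000969) and was 3.16 times that with IL-6+TGF-β (1.6 ± 0.24, adjusted p = 0.000629). In Tnfr2-/- cells it was 1.82-fold lower than in WT (-0.84 ± 0.24, adjusted p = 0.0162) and 1.74 times the IL-6+TGF-β level (0.76 ± 0.24, adjusted p = 0.0243). The latter call was lost without IL-6+TGF-β replicate 1 (adjusted p = 0.0548) or 2 (0.0682) or Tnfr2-/- library 1 (0.0797), and with no filter on low values (0.0523). The difference of Tnfr2-/- cells from Th0 was 0.55 (interval 0.04 to 1.07, adjusted p = 0.0736), and that of IL-6+TGF-β from Th0 was -0.21 (interval -0.73 to 0.30, adjusted p = 0.574).

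Egr3 (ENSMUSG00000033730.3, chromosome 14, 70077203 to 70082614, plus strand), an NFAT target that acts with Egr2, was the least abundant member. Its levels were 3.26, 6.45 and 3.50 FPKM in Th0, 0.56, 2.54 and 2.42 with IL-6+TGF-β, 4.77, 6.48 and 5.99 with TNF+TGF-β, and 4.14, 3.28 and 2.65 in Tnfr2-/- cells. The lowest value, in IL-6+TGF-β replicate 1, corresponds to about 30 fragments, the smallest number behind any member value. IL-6+TGF-β libraries were below all others. Egr3 fell 2.39-fold with IL-6+TGF-β from Th0 (log2 difference -0.97 ± 0.32, adjusted p = 0.0442), and with TNF+TGF-β it was 3.12 times the IL-6+TGF-β level (1.33 ± 0.32, adjusted p = 0.0147). The Tnfr2-/- libraries lay below all WT TNF+TGF-β libraries, with a difference of -0.64 (interval -1.33 to 0.06, adjusted p = 0.135). TNF+TGF-β and Th0 differed by 0.36 (interval -0.33 to 1.05, adjusted p = 0.412).

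NFAT proteins are regulated mainly by their localisation, so RNA levels say little of their activity, and the values are sums over all isoforms of a gene. Nfatc1 (ENSMUSG00000033016.15, chromosome 18), whose short isoform is itself induced by NFAT, stood at 69.15, 111.07 and 92.32 FPKM in Th0, 35.03, 82.58 and 87.63 with IL-6+TGF-β, 92.50, 81.55 and 81.75 with TNF+TGF-β, and 140.12, 77.13 and 77.49 in Tnfr2-/- cells. All groups overlapped, and the highest group mean was 1.44 times the lowest. Its differences were -0.07 with TNF+TGF-β against Th0 (interval -0.79 to 0.65, adjusted p = 0.901), -0.49 with IL-6+TGF-β against Th0 (-1.20 to 0.23, adjusted p = 0.333), 0.42 between the pairs (-0.30 to 1.14, adjusted p = 0.474) and 0.15 between genotypes (-0.57 to 0.86, adjusted p = 0.757). The intervals reach past 1 log2 unit in the 2 comparisons with IL-6+TGF-β, so the spread does not bound the change below that size. Without IL-6+TGF-β replicate 1, at 35.03 FPKM its lowest library, these 2 differences were -0.0675 against Th0 and 0.00085 between the pairs.

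Nfatc2 (ENSMUSG00000027544.16, chromosome 2, 168476410 to 168601657, minus strand), which encodes an NFAT protein present in resting T cells, rose with both cytokine pairs. It stood at 5.27, 8.01 and 5.14 FPKM in Th0, 10.10, 28.70 and 21.77 with IL-6+TGF-β, 18.28, 19.57 and 18.67 with TNF+TGF-β, and 13.85, 8.83 and 6.15 in Tnfr2-/- cells. All WT libraries with a cytokine pair were above all Th0 libraries. The rise was 3.07-fold with TNF+TGF-β (log2 difference 1.5 ± 0.34, adjusted p = 0.00598) and 3.29-fold with IL-6+TGF-β (1.48 ± 0.34, adjusted p = 0.00794), and both comparisons use the same Th0 libraries. The pairs differed by 0.02 (interval -0.72 to 0.76, adjusted p = 0.98). In Tnfr2-/- cells it was 1.96-fold lower than in WT (-0.97 ± 0.34, adjusted p = 0.0422), with no overlap, and overlapped Th0 (0.53, interval -0.21 to 1.27, adjusted p = 0.219).

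Tox (ENSMUSG00000041272.11, chromosome 4, 6686353 to 6991557, minus strand) encodes a nuclear factor needed for CD4 lineage development and for T cell exhaustion. It stood at 23.84, 29.13 and 26.60 FPKM in Th0, 15.36, 19.54 and 19.04 with IL-6+TGF-β, 16.69, 18.42 and 15.30 with TNF+TGF-β, and 23.51, 14.02 and 16.77 in Tnfr2-/- cells. All Th0 libraries were above all others. Tox fell 1.58-fold with TNF+TGF-β (log2 difference -0.63 ± 0.18, adjusted p = 0.0197) and 1.48-fold with IL-6+TGF-β (-0.54 ± 0.18, adjusted p = 0.0484), and it was also lower in Tnfr2-/- cells than in Th0 (-0.55 ± 0.18, adjusted p = 0.0237). The last call was lost without Th0 replicate 2 (adjusted p = 0.0803) or 3 (0.061), Tnfr2-/- library 2 (0.102) or the one numbered 4 (0.0629), under TPM (0.0786) and on the 6 libraries alone (0.0601). The 3 groups with TGF-β differed from each other by at most 0.09 on the log2 scale (adjusted p = 0.807, 0.773 and 0.961).

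Over the 9 genes, the centred log2 profiles across the 12 libraries were most alike for Egr1 and Egr3 (root mean square difference 0.32), then for Egr1 and Nfatc1 (0.33) and Nfatc1 and Tox (0.39), among 36 pairs. The group structure in the heat map came from Nr4a2 and Tox, high in Th0, and from Nfatc2, low in Th0. It also came from Egr2, high with TNF+TGF-β in WT, and from Nr4a3, high both there and in Th0.

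**Figure D3:**
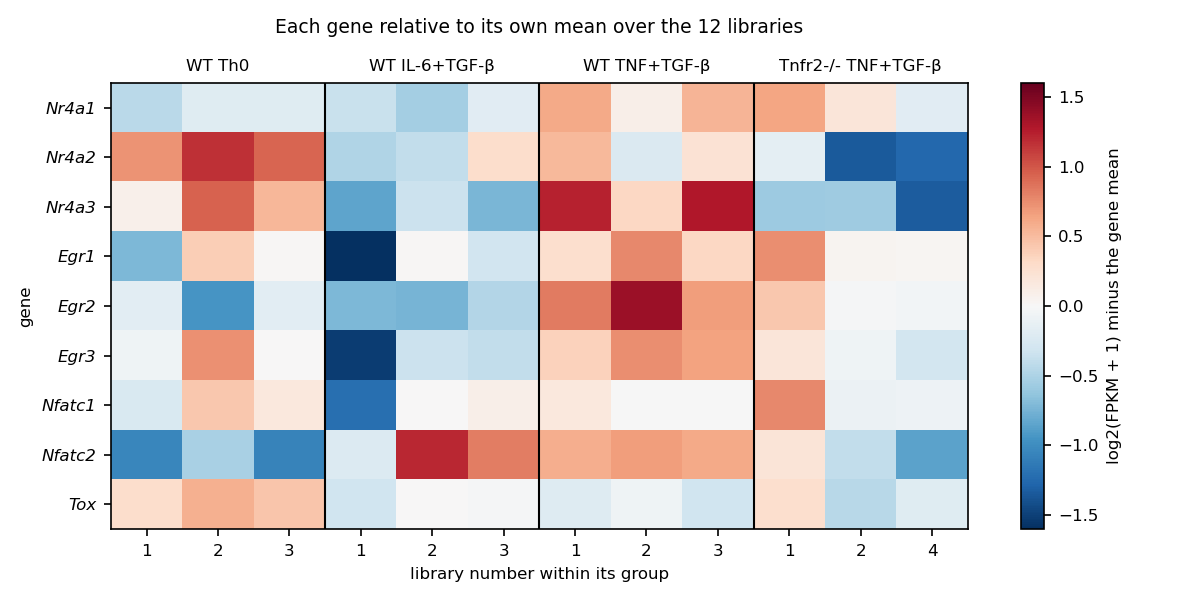
Heat map of log2(FPKM + 1) minus the gene's mean over the 12 libraries (colour) for each gene (rows) and library (columns, by group). Egr1, Egr3 and Nfatc1 are lowest in IL-6+TGF-β library 1, and Nr4a3 is lowest in the Tnfr2-/- library numbered 4.

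Some calls were lost when 1 library was left out. For TNF+TGF-β against Th0, Nr4a1 no longer passed without Th0 replicate 1 (adjusted p = 0.0821), TNF+TGF-β replicate 1 (0.0856) or TNF+TGF-β replicate 3 (0.0683). Tox no longer passed without Th0 replicate 2 (0.063) or 3 (0.0589) or TNF+TGF-β replicate 1 (0.0573) or 3 (0.0638), nor after rescaling to TPM (0.125). Over the 6 fits without 1 library, the difference stayed at 0.59 to 0.85 for Nr4a1 and at -0.70 to -0.56 for Tox. Egr2 and Nfatc2 passed in all 16 alternatives run. The median difference of the 9 genes was 0.43, beside 0.07 over all genes tested, and 5 of 9 had groups that did not overlap, against 55.1% of all genes. All 8 B cell markers fell in the same comparison (median -1.69) and 3 of 5 CD8 and NK markers rose (median 0.93). Among 8 T cell markers 0 rose and 1 fell (1 and 2 unadjusted, median 0.13). The part of these markers in the values was not tested.

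For IL-6+TGF-β against Th0, Nfatc2 passed in all 16 alternatives, whereas the 4 falls were less stable. Nr4a3 no longer passed without Th0 replicate 2 (adjusted p = 0.0731) or 3 (0.0557) or IL-6+TGF-β replicate 3 (0.06), and Nr4a2 without Th0 replicate 2 (0.0756) or 3 (0.0622) or IL-6+TGF-β replicate 1 (0.0594) or 2 (0.0758). Egr3 no longer passed without Th0 replicate 1 (0.0544), 2 (0.159) or 3 (0.0693) or IL-6+TGF-β replicate 1, where its difference was -0.59 (0.109), and Tox missed it whichever library was left out (adjusted p = 0.0685 to 0.141 over the 6). With no filter on low values Nr4a2 (0.0569), Egr3 (0.105) and Tox (0.0775) missed the threshold, and under TPM Egr3 (0.0889) and Tox (0.182) did. Egr3 also missed it with a pseudocount of 0.1 (0.0523) and when fitted on the 6 libraries alone (0.119), and Tox with no variance trend (0.0537). The median difference was -0.53, beside 0.04 over all genes, and 5 of 9 had groups that did not overlap, against 39.2% of all genes. Of the B cell markers 3 of 8 fell and 0 rose, at an unadjusted p under 0.05 5 and 0, and of the myeloid markers 3 of 8 fell and 0 rose (5 and 0 unadjusted). Of the CD8 and NK markers 2 of 5 rose and 1 fell. Among 8 T cell markers 1 rose and 2 fell (2 and 4 unadjusted, median -0.46). Their part was not tested.

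Between the pairs, Nr4a3 and Egr2 passed in all 16 alternatives. Egr3 no longer passed without TNF+TGF-β replicate 2 (adjusted p = 0.0598), and Nr4a1 without TNF+TGF-β replicate 1 (0.104) or 3 (0.0844) or IL-6+TGF-β replicate 1 (0.057) or 2 (0.0771) or with no filter (0.0511). The median difference of the 9 genes was 0.77, beside 0.00 over all genes, and 5 of 9 did not overlap, against 32.1% of all genes. Of 8 T cell markers 1 was higher with TNF+TGF-β and 0 were lower (1 and 1 at an unadjusted p under 0.05). That 1 was Cd4, at 58.2 ± 19.2 against 14.5 ± 10.6 FPKM (adjusted p = 0.0199). Of 5 CD8 and NK markers 1 was higher and 1 lower with TNF+TGF-β. Of 8 B cell markers 4 were lower and 1 higher in that group, and none of 8 myeloid markers passed by limma, with 5 higher at an unadjusted p under 0.05. Their part was not tested.

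Between genotypes, Nr4a3 passed in all 16 alternatives. Egr2 no longer passed without TNF+TGF-β replicate 2 in WT (adjusted p = 0.0669) or without the Tnfr2-/- library 2 (0.0581) or the one numbered 4 (0.059). Nr4a2 no longer passed without WT replicate 1 (0.0776) or 3 (0.0565), Tnfr2-/- library 2 (0.0802) or the one numbered 4 (0.0745). Of the 6 fits without 1 library, Nfatc2 passed only in that without Tnfr2-/- library 1 (adjusted p = 0.0885 to 0.159 without each other library) and missed the threshold with no filter (0.0885). The median difference was -0.64, beside 0.00 over all genes, and 4 of 9 did not overlap, against 50.8% of all genes. All 8 B cell markers (median 2.98) and 5 of 8 myeloid markers were higher in Tnfr2-/- cells, and 4 of 8 T cell and 4 of 5 CD8 and NK markers tested were lower (median -0.52 and -2.52). Genotype and cell makeup cannot be told apart here.

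Beside the list counts here and below, the shares of all genes called in either direction were 31.7% for TNF+TGF-β and 23.2% for IL-6+TGF-β against Th0. They were 12.8% between the pairs and 37.4% between genotypes. For the list genes too, genotype and cell makeup cannot be told apart. The calcium, calcineurin and NFAT list held 21 tested genes. With TNF+TGF-β 6 rose over Th0 and 0 fell (8 and 2 at an unadjusted p under 0.05; median 0.37), among them Orai2, a calcium channel gene, from 12.1 ± 0.73 to 35.2 ± 6.55 FPKM, Homer3, whose family competes with calcineurin for NFAT, from 2.23 ± 0.64 to 7.67 ± 0.24, and Itpr3, which encodes an inositol trisphosphate receptor, from 3.08 ± 0.21 to 8.46 ± 1.76. With IL-6+TGF-β 6 rose and 1 fell (median 0.35): Itpr3 rose to 13.9 ± 6.61 FPKM, Homer3 to 9.47 ± 0.96 and Orai2 to 22.8 ± 8.10, while Orai1, the main pore of the store-operated channel, fell from 137 ± 21.1 to 54.5 ± 9.91 (adjusted p = 6.56e-05). Orai1 was higher under TNF+TGF-β than under IL-6+TGF-β, at 101 ± 7.77 FPKM, as was Nfat5, at 6.65 ± 0.965 against 3.87 ± 0.38, and 0 genes were lower (3 and 1 unadjusted; median 0.02). In Tnfr2-/- cells 3 were higher and 1 lower than in WT (median -0.10). Itpr2 was 72.0 ± 5.5 against 17.9 ± 1.10 FPKM, Ppp3ca, a calcineurin catalytic subunit gene, 60.9 ± 16.9 against 19.25 ± 5.56, and Rcan1, a calcineurin inhibitor gene and NFAT target, 24.8 ± 5.15 against 15.4 ± 2.48.

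Of 12 EGR partners and anergy genes, 2 rose and 2 fell with TNF+TGF-β against Th0 (median -0.41), and 3 rose and 6 fell with IL-6+TGF-β (median -0.84). Egr4 fell with both pairs, from 5.37 ± 0.91 to 1.88 ± 0.20 FPKM with TNF+TGF-β, opposite to Egr2, and to 1.08 ± 0.021 with IL-6+TGF-β. Itch, a ubiquitin ligase gene, rose with both, from 9.01 ± 1.90 to 16.8 ± 2.22 and 15.5 ± 3.84. Nab2, which encodes a corepressor bound by EGR proteins and is itself an EGR target, fell with IL-6+TGF-β from 44.8 ± 7.76 to 13.6 ± 4.84 FPKM (adjusted p = 0.00107) and was higher with TNF+TGF-β, at 33.5 ± 10.1 (adjusted p = 0.012). Fasl, the death ligand gene and an EGR target, fell with IL-6+TGF-β from 8.41 ± 0.645 to 1.04 ± 0.12 FPKM and was 6.10 ± 1.87 with TNF+TGF-β (adjusted p = 0.000847 between the pairs). Of the 12 genes, 5 were higher under TNF+TGF-β than under IL-6+TGF-β and 1 was lower, Dtx1, an anergy-associated ubiquitin ligase gene, at 3.14 ± 0.62 against 11.1 ± 3.6 (median of the list 0.50). Between genotypes 2 were higher and 4 lower (median -0.28). Dtx1 was 25.2 ± 3.36 FPKM in Tnfr2-/- against 3.14 ± 0.62 in WT cells, Rnf128, which encodes GRAIL, 5.10 ± 3.06 against 1.02 ± 0.54, and Dgkz, a diacylglycerol kinase gene, 83.5 ± 33.2 against 171 ± 6.14.

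The list of NR4A and TOX relatives and exhaustion-associated genes had 17 tested genes. Rxra encodes a dimer partner of NR4A1 and NR4A2. Its level of 2.04 ± 0.23 FPKM in Th0 rose with TNF+TGF-β to 31.1 ± 2.32 (log2 difference 3.40 ± 0.27, adjusted p = 2.95e-06), stood at 2.09 ± 0.83 with IL-6+TGF-β, and was 5.27 ± 2.58 in Tnfr2-/- cells (-2.43 ± 0.27 from WT, adjusted p = 4.81e-05). Cd101 rose with both pairs, from 1.14 ± 0.39 to 50.3 ± 6.52 with TNF+TGF-β and 51.3 ± 14.2 FPKM with IL-6+TGF-β, and Tigit, a coinhibitory receptor gene, fell with both, from 37.8 ± 4.79 to 7.82 ± 1.38 and 11.4 ± 3.18. Tox2, a relative of Tox, rose with IL-6+TGF-β from 0.92 ± 0.74 to 6.51 ± 4.29 FPKM (adjusted p = 0.0129). Lag3 and Ccl4 were lower under TNF+TGF-β than under IL-6+TGF-β, at 6.26 ± 1.56 against 24.8 ± 11.9 and 138 ± 66.6 against 559 ± 188 FPKM, and the chemokine gene Ccl3 and the receptor gene Cd160 were lower in Tnfr2-/- than in WT cells, at 8.67 ± 4.97 against 91.9 ± 27.9 and 32.7 ± 14.9 against 123 ± 6.84. Against Th0, TNF+TGF-β had 2 genes higher and 3 lower and IL-6+TGF-β had 4 and 1. The counts were 2 and 5 between the pairs and 3 and 7 between genotypes, and the medians of the 4 comparisons were -0.01, 0.16, -0.27 and -0.28.

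**Figure D4:**
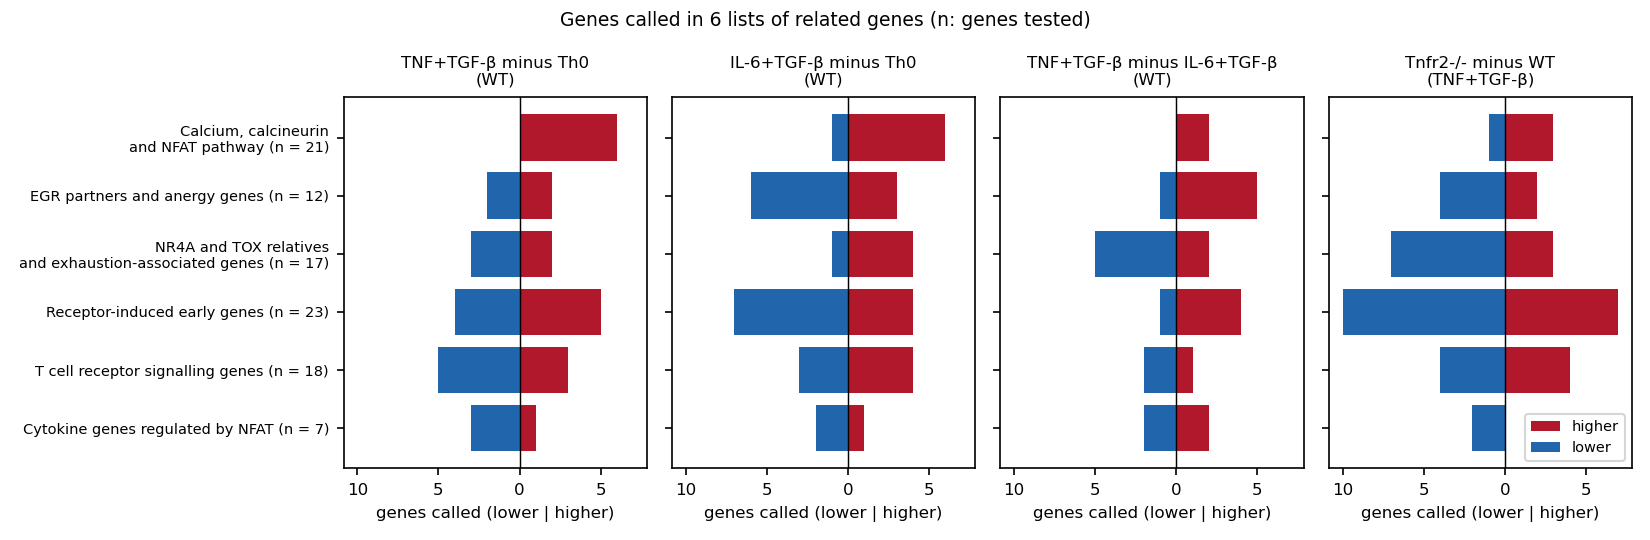
Number of genes called higher (red, to the right) or lower (blue, to the left) by limma in each of 6 lists (y axis, with the number tested) for the 4 comparisons. In the EGR list 5 genes are higher and 1 lower under TNF+TGF-β than under IL-6+TGF-β, and in the early gene list 7 are higher and 10 lower in Tnfr2-/- than in WT cells.

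Of 23 other early genes of receptor signalling, 5 rose and 4 fell with TNF+TGF-β, 4 rose and 7 fell with IL-6+TGF-β, 4 were higher and 1 lower between the pairs, and 7 were higher and 10 lower between genotypes (medians 0.07, -0.09, 0.15 and -0.35). Jun rose with both pairs, from 18.8 ± 3.02 FPKM to 81.5 ± 12.2 and 94.6 ± 11.1, as did Ier3, from 3.37 ± 1.05 to 19.3 ± 1.61 and 17.2 ± 0.61. Bhlhe40 rose with TNF+TGF-β, from 40.3 ± 23.0 to 174 ± 50.5 FPKM, and stood at 80.9 ± 31.1 with IL-6+TGF-β (adjusted p = 0.0754 against Th0). Dusp6, a feedback phosphatase gene of ERK, fell with both pairs, from 89.9 ± 47.7 to 29.0 ± 1.42 with TNF+TGF-β and 32.7 ± 5.28 with IL-6+TGF-β. With TNF+TGF-β in WT, Dusp5, another ERK phosphatase gene, stood at 56.1 ± 8.22 FPKM, above its 9.76 ± 3.43 with IL-6+TGF-β and 17.3 ± 4.15 in Tnfr2-/- cells. Tnfrsf4, the OX40 gene, had 542 ± 27.6 FPKM under TNF+TGF-β and 222 ± 56.7 under IL-6+TGF-β. Zfp36, an RNA-decay factor gene, had 35.1 ± 7.17 FPKM under IL-6+TGF-β, was lower under TNF+TGF-β, 14.9 ± 1.66, and higher in Tnfr2-/- cells, at 65.3 ± 7.59, while Ier3 was lower there, at 2.91 ± 1.45.

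Among 18 genes of the receptor and its proximal signalling, 3 rose and 5 fell with TNF+TGF-β, 4 rose and 3 fell with IL-6+TGF-β, 1 was higher and 2 lower between the pairs, and 4 were higher and 4 lower between genotypes. Rasgrp1, which couples diacylglycerol to RAS, rose with TNF+TGF-β from 18.2 ± 3.27 to 53.8 ± 12.1 FPKM and was 21.5 ± 3.76 with IL-6+TGF-β. Plcg1, which makes the calcium-releasing second messenger, rose from 20.3 ± 5.29 to 45.9 ± 8.13 with TNF+TGF-β and 48.7 ± 20.1 FPKM with IL-6+TGF-β. It was 23.6 ± 7.30 for Tnfr2-/- (adjusted p = 0.0278 versus WT). The order of FPKM group means was that of Nfatc2, where neither the pairs (adjusted p = 0.98) nor Tnfr2-/- cells and Th0 (0.219) differed. Cd28 was 96.4 ± 5.38 in Th0, 42.2 ± 3.39 with TNF+TGF-β, 81.3 ± 8.43 with IL-6+TGF-β and 77.4 ± 7.39 FPKM in Tnfr2-/- cells. Vav1 rose with IL-6+TGF-β, from 89.7 ± 3.05 to 159 ± 21.9, and stood at 113 ± 10.6 with TNF+TGF-β (adjusted p = 0.174 against Th0). Ptpn6, which encodes a phosphatase, had 408 ± 18.04 FPKM in Th0 and fell with both pairs, to 206 ± 22.2 under IL-6+TGF-β and 257 ± 6.92 under TNF+TGF-β. Prkcq was lower under TNF+TGF-β than under IL-6+TGF-β, at 39.2 ± 1.57 against 65.0 ± 7.71.

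Of 7 tested cytokine and ligand genes regulated by NFAT, 1 rose and 3 fell with TNF+TGF-β, 1 rose and 2 fell with IL-6+TGF-β, 2 were higher and 2 lower between the pairs, and 0 were higher and 2 lower between genotypes (0 and 3 unadjusted). Csf2, which encodes GM-CSF, stood at 6.62 ± 2.33 FPKM in Th0, 77.4 ± 8.73 under TNF+TGF-β in WT, 1.06 ± 0.73 under IL-6+TGF-β and 1.02 ± 0.61 in Tnfr2-/- cells (adjusted p = 5.8e-07 between genotypes). Cd40lg, the ligand gene of CD40, was 9.45 ± 1.80 in Th0, 5.94 ± 1.42 with TNF+TGF-β, 1.26 ± 0.18 with IL-6+TGF-β and 3.43 ± 0.88 FPKM in Tnfr2-/- cells. Ifng, the interferon gamma gene, had 3.82 ± 2.64 FPKM under TNF+TGF-β and 15.8 ± 4.65 under IL-6+TGF-β (adjusted p = 0.0186), and Il21 was listed at 0 in every library of Th0 and WT TNF+TGF-β and averaged 10.8 ± 0.998 FPKM with IL-6+TGF-β.

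For each of the 7 members called in a main comparison, the 2 other genes with the most similar centred log2 profile over the 12 libraries were found. They were Pkp4 and Cd274, the PD-L1 gene, for Nr4a3 (root mean square differences 0.33 and 0.37), Galnt3 and Plk2 for Nr4a2 (0.22 and 0.29), and Pja2 and Mitf for Nr4a1 (0.20 and 0.20). The root mean square of the member's own profile, the scale for these values, was 0.83 for Nr4a3, 0.76 for Nr4a2 and 0.39 for Nr4a1. For Egr2 they were Actg2 and Slc39a4 (0.24 and 0.25), for Egr3 Vav2 and B4galnt1 (0.22 and 0.25), for Nfatc2 Adcy3 and Sept9 (0.14 and 0.15), and for Tox Rab10 and Lacc1 (0.13 and 0.14), beside profile sizes of 0.67, 0.60, 0.75 and 0.31. Mitf, at group means of 0.39 to 0.91 FPKM, and Actg2, at 0.12 to 1.76, are low genes, whose differences this scale compresses. Cd274 stood at a mean of 10.5 FPKM in Th0, 3.19 with IL-6+TGF-β, 15.5 with TNF+TGF-β and 4.78 in Tnfr2-/- cells. Like Nr4a3 it was highest with TNF+TGF-β in WT, then in Th0, with the 2 low groups in the opposite order.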

How the data were processed

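RNA from 12 libraries in 4 groups was measured by sequencing. Per the labels' protocols, SMARTer v4 cDNA went into Nextera XT libraries, a chemistry that does not mark the strand, so antisense reads could not be separated. Per the submitters' processing notes, Trimmomatic, STAR 2.5.4, RSEM 1.3.1 and mm10 were used. The header names RSEM gene results without the quantity; the deposited values were read as FPKM made by the authors, since they summed to 689045 to 828161 per library and, times transcript length in kilobases, to 900467 to 1010096. Depth was estimated from the steps between low values of 8697 genes with 1 transcript of 800 to 3000 bases, shortened by 300; 77.0% to 89.0% of those low values lay within 0.2 of a whole multiple. It is approximate, and counting floors are not printed.

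Genes with at least 1 FPKM in 3 libraries entered a limma 3.58.1 fit (R 4.3.3) of log2(FPKM + 1), 1 mean per group over all 12 libraries, variance prior following the mean, Benjamini-Hochberg adjustment over 13082 genes, two-sided. In simulated data for TNF+TGF-β against Th0 (13082 genes), only 100 genes were changed by 1 log2 unit and 100 by 2 units. Of these 64% and 96% were recovered, with 12 false calls. All changed genes had a mean above 2 on the log2 scale. The real comparison called 4145 genes, so these shares may not carry over to it. Alternatives were other pseudocounts (0.1, 5), filters and scalings, no variance trend, 6 libraries only, a replicate block and leaving out each library. Members and lists were chosen with earlier results of these data known. The text names all members, up to 3 called genes per list and comparison by size of difference, whose higher group averaged 5 FPKM or more, and 2 most similar genes per called member. Some genes that this rule names are not reported here. Locations are from GENCODE M21 (GRCm38), promoters from RefSeq.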

Additional observations from a re-analysis of the deposited data

How the results depend on the processing

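Of the 17 calls of members in the 4 main comparisons, 0 changed direction in any alternative run, 6 passed in all 16 alternatives that apply to each, and 11 were lost in at least 1. Leaving out 1 library at a time, the number of members called was 2 to 4 for TNF+TGF-β against Th0 (4 with all), 1 to 3 for IL-6+TGF-β against Th0 (5 with all) and 1 to 4 between genotypes (4 with all). In the same fits 2812 to 3712 of all genes were called (4145 with all), 2131 to 3878 (3041) and 3555 to 5269 (4898), in that order. For IL-6+TGF-β against Th0 it was 3 after rescaling to TPM and 2 with no filter on low values, where more genes are tested. TPM moved the median of all genes by 0.15 for TNF+TGF-β against Th0 and by -0.11 between genotypes, and median-ratio scaling by -0.12 for Tnfr2-/- cells against Th0. The cause of the other changes was not tested.

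Whether the replicate numbers pair the libraries was not settled. Same-numbered libraries of different groups had correlations of their deviations from -0.28 to 0.34, beside -0.34 to 0.29 for other pairs. Among WT groups alone these ranges were -0.0288 to 0.34 and -0.34 to 0.18. Same-numbered pairs with a Tnfr2-/- library had -0.28 to 0.0816. Of 11 numbered libraries, 6 correlated best with one of their own number. With the replicate block, in which the library numbered 4 drops out, 1 member was called between genotypes, Nr4a3, and 3253 of all genes in place of 4898, and the calls of Nr4a2 (adjusted p = 0.120), Egr2 (0.108) and Nfatc2 (0.1995) were lost. Tox with IL-6+TGF-β against Th0 was also lost (0.0885), as were Tox in Tnfr2-/- cells against Th0 (0.108) and, against IL-6+TGF-β, Egr2 (0.0590) and Nfatc2 (0.207). Nr4a1 between genotypes was then 0.0612, and against IL-6+TGF-β in WT the Tnfr2-/- difference was 0.11 for Nr4a3 and 0.0181 for Tox.

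Differences near 0 that missed the threshold turned sign under some settings. Under TPM, Nfatc1 with TNF+TGF-β against Th0 was 0.11, Nr4a1 with IL-6+TGF-β against Th0 was 0.0198 and Tox between genotypes was -0.0453. Nfatc2 between the pairs was -0.0117 with median-ratio scaling and -0.0030 with a pseudocount of 5, and Nfatc1 in Tnfr2-/- cells against Th0 was -0.0697 with median-ratio scaling. Leaving out 1 library gave -0.25 to 0.0900 for Nfatc1 with TNF+TGF-β against Th0, -0.18 to 0.0030 for Nr4a1 with IL-6+TGF-β against Th0 and -0.39 to 0.32 for Nfatc2 between the pairs. Between genotypes it gave -0.14 to 0.29 for Nfatc1 and -0.12 to 0.23 for Tox. For Tnfr2-/- cells it gave -0.20 to 0.24 for Nfatc1 against Th0, and against IL-6+TGF-β -0.32 to 0.0681 for Nr4a3 and -0.21 to 0.14 for Tox.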

Other observations

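Single libraries stood out within their groups across the 9 genes. In the Tnfr2-/- group, library 1 had the highest value for 8 of 9 members, against 44.0% of all genes tested, and the library numbered 4 the lowest for 6 of 9, against 48.8%. Library 1 also had the lowest B cell marker sum of that group, 2044 FPKM against 3625 and 4467, and the highest T cell marker sum, 1887 against 1581 and 1231. Its myeloid marker sum was the highest too, 1443 FPKM against 1013 and 206, as was its CD8 and NK sum, 303 against 278 and 97.7. In the IL-6+TGF-β group, replicate 1 had the lowest value for 7 of 9 members, against 41.0% of all genes, and in Th0 replicate 1 was lowest for 7 of 9, against 33.9%, and replicate 2 highest for 7 of 9, against 39.5%. The part of cell makeup in these orders was not tested.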
